A study of Mus musculus with 4 samples.

Results

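The miR-23, miR-24 and miR-27 miRNAs were examined in exosome-enriched preparations from mouse astrocytes. The members were taken by hairpin name, as each listed arm of miR-23a, miR-23b, miR-24, miR-24-1, miR-24-2, miR-27a and miR-27b, which gave 11 of the 389 miRNAs in the table. C8-D1A, an established wild-type mouse astrocyte line, was grown in medium with fetal bovine serum, and vesicles were pelleted from the culture supernatant by ultracentrifugation before small RNA sequencing. The control group (2 libraries) was kept at 37 °C for 8 h, and the heat stress group (2 libraries) was held at 42 °C for 2 h and rewarmed at 37 °C for 6 h. The question was which vesicle miRNAs differ after heat stress. The libraries of a group were stated to be biological replicates of this line, and bovine RNA from the serum was not measured separately.

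miR-23, miR-24 and miR-27 are made from a pair of gene clusters, miR-23a27a24-2 and miR-23b27b24-1, each transcribed as a common precursor that is cut into hairpins. Each hairpin can give a mature miRNA from its 5′ arm (5p) and from its 3′ arm (3p), and the seed near the 5′ end of the mature miRNA pairs with target mRNAs. The clusters are broadly expressed and are best known from vascular, immune and muscle cells, and miR-23 has also been studied in glia.

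In the RefSeq table for GRCm38.p6, Mir23a lies at chr8:84208518-84208592, Mir27a at chr8:84208672-84208758 and Mir24-2 at chr8:84208815-84208921, all on the plus strand, so the cluster spans 404 bp. Mir23b lies at chr13:63300484-63300557, Mir27b at chr13:63300712-63300784 and Mir24-1 at chr13:63301208-63301275, also on the plus strand, and this cluster spans 792 bp. In the GENCODE annotation of GRCm38, Mir23a and Mir27a overlapped no other gene, and Mir24-2 overlapped an exon of the long noncoding RNA gene Gm26532. Mir23b lay in an intron of the protein-coding gene 2010111I01Rik on the same strand. Mir27b overlapped an exon of a nonsense-mediated-decay transcript of that gene, and Mir24-1 overlapped exons of its nonsense-mediated-decay, processed and retained-intron transcripts. All 3 hairpins lay opposite an intron of Fancc. The only other hairpins within 10 kb were Mir3074-1 and Mir3074-2, which lie antisense to the miR-24 hairpins, and 0 of their mature miRNAs were listed.

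**Figure D1:**
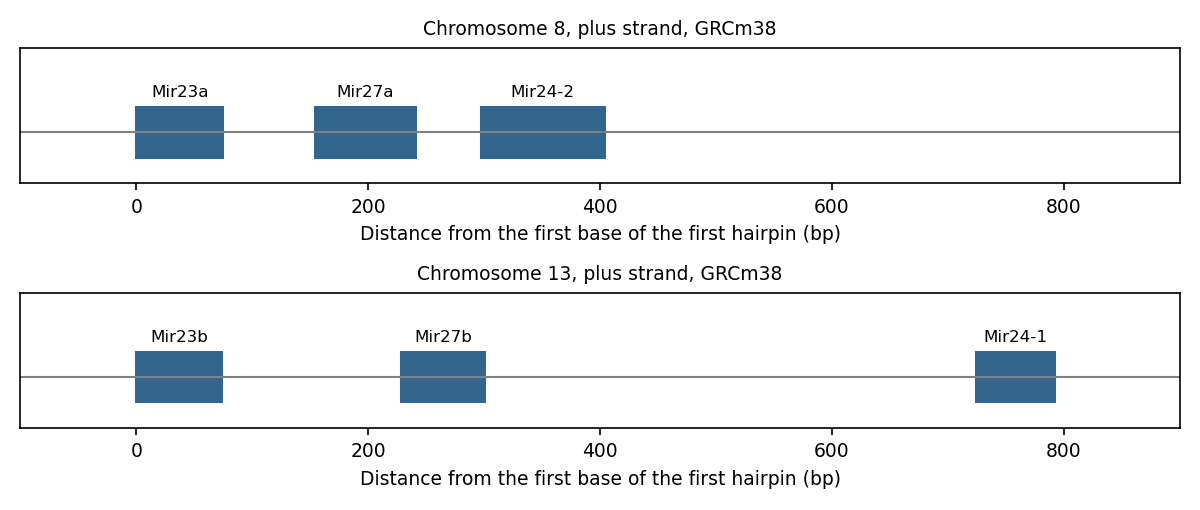
Positions of the 6 hairpins of the clusters on the plus strand of GRCm38, in bp from the first base of the first hairpin. Boxes are hairpins drawn to scale, and the chromosome 8 cluster (404 bp) is shorter than the chromosome 13 cluster (792 bp).

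Mature sequences from RefSeq (GRCm38.p6) were matched by name for 10 of the 11 members. They are shown 5′ to 3′ with the seed, bases 2 to 8, in capitals, because the seeds define which members can share targets.
miR-27a-3p: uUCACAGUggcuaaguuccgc
miR-27b-3p: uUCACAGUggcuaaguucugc
miR-23a-3p: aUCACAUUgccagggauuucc
miR-24-3p: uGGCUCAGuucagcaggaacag
miR-24-1-5p: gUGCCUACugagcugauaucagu
miR-24-2-5p: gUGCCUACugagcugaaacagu
miR-23a-5p: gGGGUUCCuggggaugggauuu
miR-23b-5p: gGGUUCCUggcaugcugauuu
miR-27a-5p: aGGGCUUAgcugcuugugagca
miR-27b-5p: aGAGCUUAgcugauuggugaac
miR-27a-3p and miR-27b-3p shared a seed and differed by 1 base, C19U, with positions counted from 1 at the 5′ end and the base of miR-27a-3p first. miR-24-1-5p and miR-24-2-5p shared another seed. No sequence was matched for miR-23b-3p, so its seed could not be compared with that of miR-23a-3p. The same mature miR-24-3p is cut from 2 loci, so its value belongs to both clusters. Among the 325 of 389 listed miRNAs with a mature sequence in the table, none outside the members shared bases 2 to 8 with any of the 10, and the others were not compared. How the counting treated reads that fit more than 1 of the near-identical miR-23 or miR-27 paralogues is not given in the sources used here, so the division between paralogues is uncertain.

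The table gives a normalised value per miRNA and library. Within each library every value was a whole multiple of 1 step (tolerance 0.001 steps). The inverse of that step was 0.738 and 1.28 in the control replicates 1 and 2 and 1.27 and 0.999 in the heat stress replicates, the same as the median-of-ratios factors computed from the steps, so a step was taken as 1 read, which the sources used here do not state. On that reading the libraries held 43675 and 95020 miRNA reads in the control group and 100933 and 63338 in the heat stress group. Exact intervals of values, shares and ratios below are 95% intervals from these reads. They cover the counting of reads only, since PCR copies cannot be told from separate molecules, while intervals of log2 changes come from limma and the spread between libraries. A count of 0 allows a value of up to 4.06 and 2.35 in the control libraries and 2.37 and 3.00 in the heat stress libraries, at 3 reads each.

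The 11 members together held 0.985% and 0.885% of the library total in the control replicates 1 and 2, and 0.740% and 0.962% in the heat stress replicates 1 and 2. The exact (Clopper-Pearson) intervals of these shares were 0.894 to 1.08%, 0.827 to 0.947%, 0.688 to 0.795% and 0.887 to 1.04%. Heat stress replicate 1 was lowest and heat stress replicate 2 lay between the control libraries, so the groups overlapped. The mean share was 0.935% ± 0.0703 (SD, n = 2) for control and 0.851% ± 0.157 (SD, n = 2) for heat stress. The summed value was 583 and 658 in the control libraries and 590 and 610 in the heat stress libraries, a log2 change of −0.05, and that of the share was −0.15. The summed change turned to 0.04 without control replicate 2 and was −0.13 without control replicate 1. That of the share turned to 0.04 without heat stress replicate 1 and was −0.33 without heat stress replicate 2. Neither was tested. In vesicle preparations, fewer vesicles from a cell type and less of a miRNA per vesicle cannot be told apart, as fewer cells and less RNA per cell cannot in bulk samples.

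By the mean over the 4 libraries the order was miR-24-3p (232), miR-27b-3p (131), miR-27a-3p (84.4), miR-23a-3p (66.0), miR-23a-5p (38.0), miR-27a-5p (37.4), miR-23b-3p (12.8), miR-24-2-5p (4.48), miR-27b-5p (2.37), miR-23b-5p (1.00) and miR-24-1-5p (0.589). miR-24-3p stood 38th of the 389 miRNAs. The lowest miR-24-3p library (183) was above the highest miR-27b-3p library (157), and every other neighbouring pair in this order overlapped across the libraries. The 3p arms, 5 members, held 86.3% of the summed member value, and all 5 were above 0 in every library. Of the 5p arms, 6 members, 2 were above 0 in every library. Values were not corrected for ligation or amplification preferences, so the order is that of the deposited values.

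**Figure D2:**
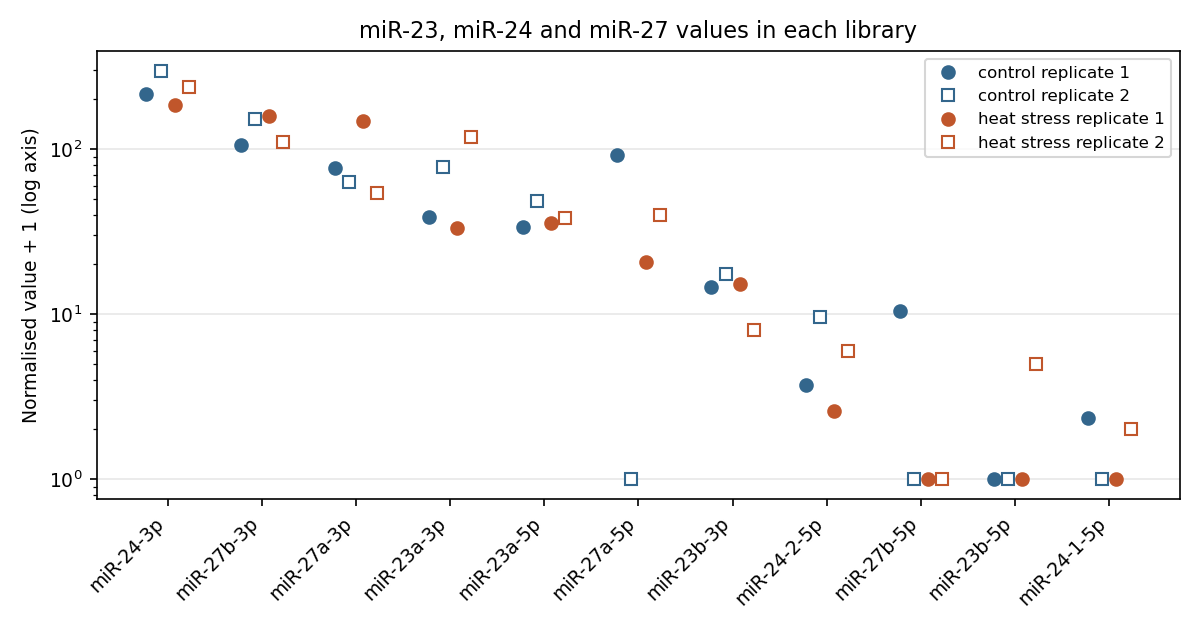
Normalised value plus 1 of each of the 11 members in the 4 libraries, on a log axis. Circles are replicate 1 and squares replicate 2 of the control group (blue) and the heat stress group (orange), and the groups overlap or tie for every member.

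No member passed the test between heat stress and control. Of the 11 members, 10 averaged 1 or more over the libraries and were tested with limma among 313 miRNAs that did so, on log2(value + 1), on which scale all log2 changes below are given, and miR-24-1-5p was not tested. The threshold was a difference above 2-fold at an unadjusted p under 0.05. With limma, 0 of 10 members passed it in either direction, and 0 members had an unadjusted p under 0.05. Among all miRNAs tested 4.47% passed as higher (14 miRNAs) and 2.88% as lower (9 miRNAs). With log2(CPM + 1) values, where CPM is the value rescaled to a common library total, the split over all miRNAs was 14 higher and 3 lower. At an adjusted p under 0.05, limma called 0% of the miRNAs, members included, while 23 had an unadjusted p under 0.05. With a heat stress replicate left out, some miRNAs reached an adjusted p under 0.05, nearly all at 0 in both control libraries. Those fits held 1 heat stress library, so these calls are not read as changes. miR-23b-5p was among them without heat stress replicate 1. It averaged 1.00 and passed the filter only through heat stress replicate 2, so that call is no test of it. The control and heat stress libraries did not overlap for 27.5% of the miRNAs tested (86 of 313) and for 0 of the 10 members. Of the members tested, 5 had a positive and 5 a negative log2 change, with a median of −0.03, against a median of 0.12 over all 313 miRNAs, of which 165 were positive and 148 negative. For miR-27a-5p, counted as positive, the mean of the untransformed values was lower in the heat stress group. With miRNAs at 0 in a whole group set to the bound that 3 reads per library allow, or left out where that gives no bound, the medians were −0.13 over 9 members and 0.03 over 291 miRNAs. Scaling by library totals moved the median of all miRNAs by 0.10, from 0.12 to 0.02.

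miR-24-3p, the most abundant member, regulates cell cycle and apoptosis genes. Its value was 214 and 296 in the control replicates 1 and 2, and 183 and 236 in the heat stress replicates 1 and 2. Heat stress replicate 2 lay between the control libraries, so the groups overlapped, and heat stress replicate 1 was the lowest library. Control averaged 255 ± 57.8 (SD, n = 2) and heat stress 210 ± 37.4 (SD, n = 2). The log2 change was −0.27 (SE 0.85, 95% interval −2.47 to 1.92, adjusted p = 0.977), lower in 1 of 2 heat stress libraries than either control library. The change stayed negative with any 1 library left out, at −0.50 and −0.04 without control replicates 1 and 2 and −0.09 and −0.45 without heat stress replicates 1 and 2. The values covered a 1.61-fold range, and the 95% interval above includes a 2-fold difference in either direction. That interval depends on the variance prior. With a prior tied to the mean it was −1.42 to 0.88, which includes a 2-fold lower but not a 2-fold higher value.

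miR-27b-3p, which is known for regulating lipid metabolism and angiogenesis genes, had values of 104 and 151 in the control replicates 1 and 2 and 157 and 110 in the heat stress replicates 1 and 2. A low and a high library occurred in each group, and the groups overlapped. The low libraries, control replicate 1 and heat stress replicate 2, were also those with the fewest reads, 43675 and 63338, and the part of depth in these values was not tested. The log2 change was 0.07 (SE 0.86, 95% interval −2.16 to 2.29, adjusted p = 0.992). It turned to −0.03 with scaling to library totals and with log2(CPM + 1) values, to −0.20 without control replicate 1 and to −0.19 without heat stress replicate 1.

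miR-27a-3p, its paralogue from the other cluster, had values of 75.9 and 61.8 in the control replicates 1 and 2 and 147 and 53.0 in the heat stress replicates 1 and 2. Heat stress replicate 1 was the highest of the libraries and heat stress replicate 2 the lowest, with the control libraries between them. These heat stress replicates differed 2.77-fold and the control replicates 1.23-fold. The log2 change was 0.36 (SE 0.95, 95% interval −2.10 to 2.83, adjusted p = 0.971), and it was −0.36 without heat stress replicate 1 and 1.09 without heat stress replicate 2.

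miR-23a-3p, known as a regulator of apoptosis genes and of glutaminase, had values of 37.9 and 76.7 in the control replicates 1 and 2 and 32.4 and 117 in the heat stress replicates 1 and 2. Their exact Poisson intervals were 25.2 to 54.8, 62.2 to 93.4, 23.3 to 44.0 and 96.9 to 140. The read-count intervals of replicates did not overlap within either group, with a 2.02-fold difference in the control group and 3.61-fold in the heat stress group, and heat stress libraries lay at both ends of the range. The log2 change was 0.19 (SE 1.06, 95% interval −2.54 to 2.93, adjusted p = 0.983). It was 1.10 without heat stress replicate 1 and 0.69 without control replicate 2, and it turned to −0.72 without heat stress replicate 2 and to −0.31 without control replicate 1.

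miR-23b-3p, the paralogue of miR-23a-3p, was much lower, with values of 13.5 and 16.4 in the control replicates 1 and 2 and 14.2 and 7.01 in the heat stress replicates 1 and 2. Heat stress replicate 2 was the lowest library, and heat stress replicate 1 lay between the control libraries. These values rest on 10, 21, 18 and 7 reads, and the exact Poisson interval of the lowest, 2.82 to 14.4, overlapped those of the others. Between the groups the log2 change was −0.53 (SE 0.88, 95% interval −2.81 to 1.75, adjusted p = 0.926), −0.99 without heat stress replicate 1 and −0.06 without heat stress replicate 2. With the paralogues summed, miR-23a-3p plus miR-23b-3p had a log2 change of 0.14 and miR-27a-3p plus miR-27b-3p of 0.19.

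**Figure D3:**
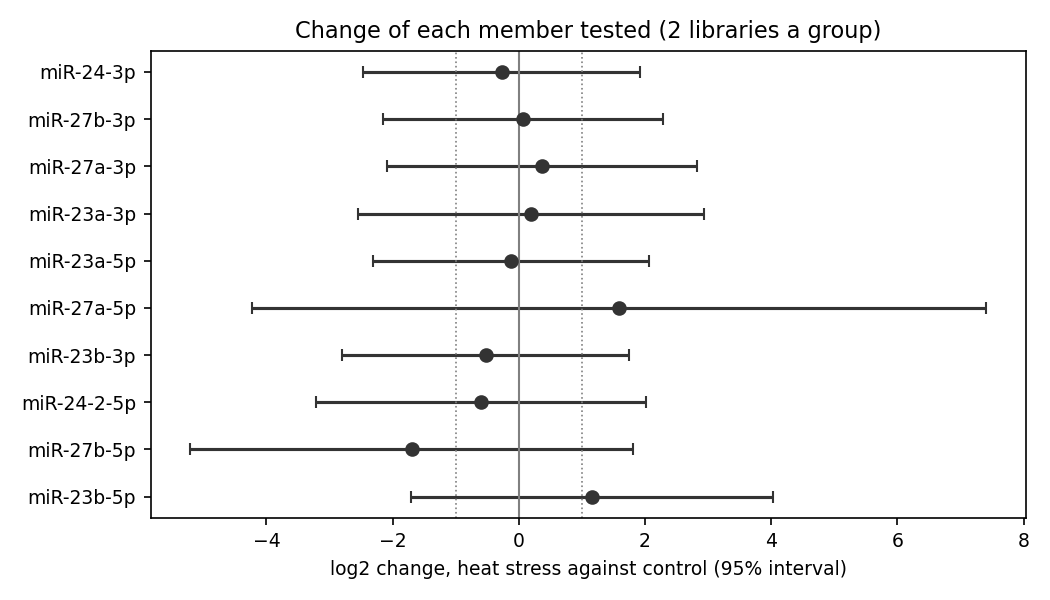
The log2 change of heat stress against control for the 10 members tested, with 95% intervals from limma (2 libraries a group) and dotted lines at a 2-fold change. The 3p members lie between −0.53 and 0.36, their sign depending on scaling or on a single library for miR-27b-3p, miR-27a-3p and miR-23a-3p, and every interval includes 0.

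The ratio of paralogues within a library does not depend on scaling. The ratio of miR-23a-3p to miR-23b-3p was 2.80 and 4.67 in the control replicates 1 and 2 and 2.28 and 16.7 in the heat stress replicates 1 and 2. miR-23a-3p was the higher paralogue in every library. The heat stress replicates held the lowest and the highest ratio, and the exact interval of the highest, 7.86 to 42.5, lay above that of the lowest, 1.28 to 4.21. The log2 ratio was higher by 0.77 in the heat stress group, with an SD of 0.52 in the control group and 2.03 in the heat stress group (exact permutation test, two-sided, p = 1). The smallest p that 2 libraries against 2 can give is 0.333. The difference was −0.67 without heat stress replicate 2 and 2.21 without heat stress replicate 1.

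The ratio of miR-27a-3p to miR-27b-3p was 0.727 and 0.409 in the control replicates 1 and 2 and 0.935 and 0.482 in the heat stress replicates 1 and 2. miR-27b-3p thus had the higher value in every library, the reverse of the order in the miR-23 pair. The exact intervals of the ratio were 0.506 to 1.04 and 0.311 to 0.534 in the control replicates 1 and 2. In the heat stress replicates 1 and 2 they were 0.761 to 1.15 and 0.340 to 0.675. Those of replicate 1 in each group include equal values, so the order there is within counting error. Replicate 1 had the higher ratio in each group, and the groups overlapped. The log2 ratio was higher by 0.30 in the heat stress group (exact permutation test, two-sided, p = 0.667). The difference turned to −0.18 without heat stress replicate 1 and to −0.12 without control replicate 2. It was 0.78 without heat stress replicate 2 and 0.71 without control replicate 1.

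The 5p members include strands that are often degraded after the hairpin is cut. miR-23a-5p had the narrowest range of the members above 0 in every library, 1.47-fold, with values of 32.5 and 47.7 in the control replicates 1 and 2 and 34.8 and 37.0 in the heat stress replicates 1 and 2. The heat stress libraries lay between the control libraries. Its log2 change was −0.13 (SE 0.85, 95% interval −2.32 to 2.05, adjusted p = 0.984), and 0.14 without control replicate 2.

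miR-27a-5p had values of 90.8 and 0 in the control replicates 1 and 2 and 19.8 and 39.0 in the heat stress replicates 1 and 2. The control libraries were the highest and the lowest, and the heat stress libraries lay between them. The value of 90.8 rests on 67 reads, and the count of 0 came from a library of 95020 reads in which miR-27a-3p had 79 reads. Control averaged 45.4 ± 64.2 (SD, n = 2), above the 29.4 ± 13.6 (SD, n = 2) of heat stress. On the log2(value + 1) scale the sign was the opposite, 1.59 (SE 2.25, 95% interval −4.23 to 7.40, adjusted p = 0.872), because the value of 0 in control replicate 2 weighs heavily there, and the size depends on the pseudocount. It was 3.21 with a pseudocount of 0.1 and 3.32 with log2(CPM + 1). The fitted change was past the threshold at 4.85 without control replicate 1 and turned to −1.67 without control replicate 2.

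The remaining 5p members rested on at most 11 reads in any library. miR-24-2-5p was 2.71 and 8.61 in the control libraries and 1.58 and 5.005 in the heat stress libraries, from 2, 11, 2 and 5 reads, and the groups overlapped. Its log2 change was −0.60 (SE 1.01, adjusted p = 0.926), 0.09 without control replicate 2 and 0.01 without heat stress replicate 1. miR-27b-5p was 9.48 in control replicate 1 and 0 in the other libraries. Set against 3 reads per heat stress library, its control mean was 1.76-fold higher, but control replicate 2 was also at 0. That fold is a bound for 3 reads only. It is lower with the upper limits of the exact intervals of these zeros, 2.92 and 3.69. The fitted log2 change of −1.69 (adjusted p = 0.686) is no bound, because it depends on the pseudocount, at −3.29 with a pseudocount of 0.1 and −3.67 with log2(CPM + 1). That change was 0 without control replicate 1 and past the threshold at −3.39 without control replicate 2. miR-27b-5p passed the filter only through control replicate 1, so the value of −3.39 is no test of it. miR-23b-5p was 4.00 in heat stress replicate 2, from 4 reads, and 0 in the other libraries, so no fold is given. Its fitted log2 change of 1.16 (adjusted p = 0.686) was 0 without heat stress replicate 2 and past the threshold at 2.32 without heat stress replicate 1. miR-23b-5p passed the filter only through heat stress replicate 2, so the value of 2.32 is no test of it. The size of the fitted change is set by the pseudocount, at 2.68 with a pseudocount of 0.1 and 3.00 with log2(CPM + 1). miR-24-1-5p was 1.35 in control replicate 1 and 1.00 in heat stress replicate 2, 1 read each, and 0 in the other libraries.

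Of the reads of both miR-27a arms, the 5p arm held 54.5% and 0% in the control replicates 1 and 2 and 11.8% and 42.4% in the heat stress replicates 1 and 2. The exact (Clopper-Pearson) intervals were 45.2 to 63.5%, 0 to 4.56%, 7.82 to 16.99% and 32.1 to 53.1%. Each group held a library with a high 5p share and a library with a low share, and the intervals of the replicates did not overlap within either group. Among 28 hairpins with both arms listed and at least 50 reads in every library, the miR-27a share had the widest range over the libraries, 54.5 percentage points, followed by miR-139 with 51.7. The high shares came from the libraries with 43675 and 63338 reads, and the part of depth in them was not tested.

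For miR-23a, the 5p arm held 46.2% and 38.4% in the control replicates 1 and 2 and 51.8% and 24.03% in the heat stress replicates 1 and 2. The heat stress libraries held the highest and the lowest share. Their intervals, 40.7 to 62.7% and 17.5 to 31.6%, did not overlap, while those of the control libraries, 32.2 to 60.5% and 30.8 to 46.4%, did. Heat stress replicate 1 was thus high for miR-23a and low for miR-27a, and heat stress replicate 2 the reverse. In the other cluster, the 5p arm held 1.19% of the miR-27b reads (interval 0.482 to 2.45%) and 6.67% of the miR-23b reads (interval 1.85 to 16.2%) with all libraries pooled. These shares came from a single library each, control replicate 1 for miR-27b (8.33%) and heat stress replicate 2 for miR-23b (36.4%), and the 5p share was 0% in the others.

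**Figure D4:**
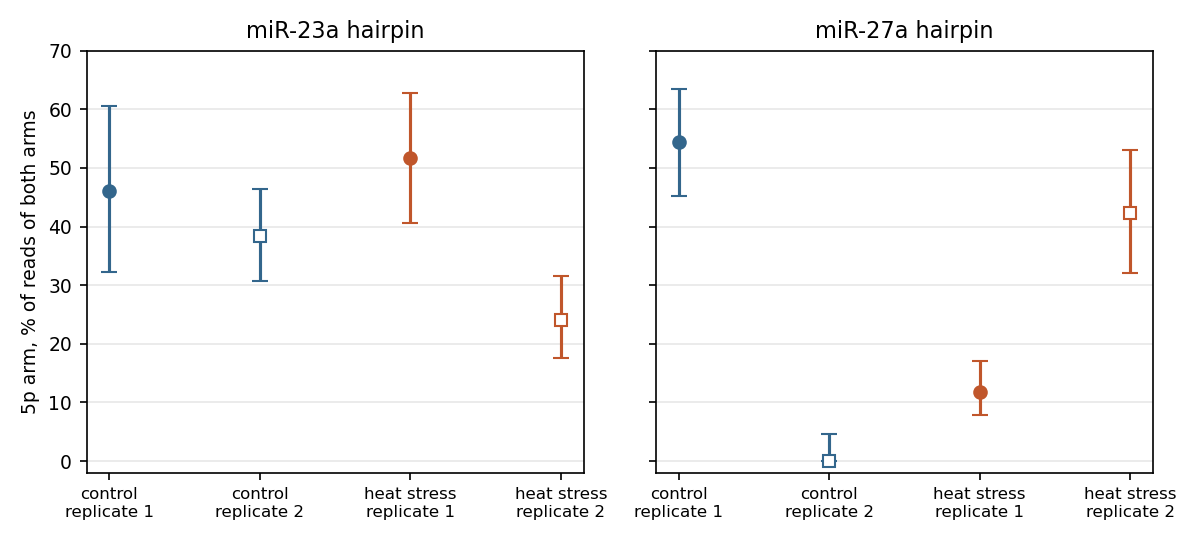
Share of the 5p arm among reads of both arms of the miR-23a and miR-27a hairpins in each library, in percent, with exact 95% intervals for counting error. Blue marks control and orange heat stress libraries. The miR-27a share runs from 0% to 54.5% within the control group.

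Among 152 other miRNAs averaging 10 or more, the profiles closest to that of the summed members over the 4 libraries were those of miR-99a-5p, miR-423-3p and miR-143-3p. The root-mean-square difference from the summed profile was 0.12, 0.15 and 0.16 on the log2 scale, and all 3 missed the threshold between the groups. Their log2 changes were 0.17, −0.33 and −0.004 in that order. The summed profile itself varied little, so closeness to it does not mean a shared direction. miR-128-3p, a brain miRNA, was included because its seed overlaps that of miR-27 with a shift of 1 base.
miR-128-3p: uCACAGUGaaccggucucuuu
Its value was 531 and 540 in the control libraries and 465 and 382 in the heat stress libraries. It was lower in 2 of 2 heat stress libraries, with a log2 change of −0.34 (adjusted p = 0.971), which was −0.20 without heat stress replicate 2 and −0.48 without heat stress replicate 1. The deepest libraries, control replicate 2 and heat stress replicate 1, were the high ones for miR-148a-3p. This miRNA, the most abundant of the table, reached 11928 and 23176 in the control libraries and 23825 and 15961 in the heat stress libraries.

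The miRNAs taken as markers of the labelled cell type were present, and whether they are specific to astrocytes was not tested. Of 4 astrocyte and glia miRNAs, 4 were listed, with a summed value of 2682 and 2442 in the control replicates 1 and 2 and 3224 and 3949 in the heat stress replicates 1 and 2, and miR-125b-5p was the most abundant. The astrocyte sums did not overlap, with heat stress above control, and this rests on miR-125b-5p, at 2134, 1612, 2402 and 3254. miR-21a-5p (228, 517, 465 and 412) and miR-143-3p (321, 310, 354 and 279) overlapped between the groups, and 0 of the 4 miRNAs passed the threshold. miR-146a-5p, which marks reactive glia, was at 0 in control replicate 1 and at most 3.13 elsewhere. Of 5 neuron miRNAs, 4 were listed, with sums of 671, 540, 603 and 433 in the same order of libraries, led by miR-128-3p. The neuron-defining miR-124-3p was 4.06 in control replicate 1, 3.00 in heat stress replicate 2 and 0 in the other libraries. By contrast, miR-9-5p of the same list was 122, 0, 138 and 48.0 in that order of libraries. miR-138-5p was 13.5 in control replicate 1 and 0 in the other libraries. The neuron sums overlapped between the groups, and none of these miRNAs passed the threshold.

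Markers of cells outside the brain were present. Their sums were below the astrocyte and neuron sums in every library but within the range of the member values. Of 5 blood cell miRNAs, 4 were listed, with sums of 42.0, 38.3, 42.7 and 61.1, led by miR-451a. miR-223-3p and miR-144-3p were at 0 in every library but heat stress replicate 1. The liver miRNA miR-122-5p was 90.8, 33.6, 20.5 and 76.1. The liver marker overlapped between the groups and the blood cell sums were separated only narrowly, with 0 of these miRNAs past the threshold, while a muscle and an endothelial miRNA passed it. Of 3 muscle miRNAs, 2 were listed, with sums of 39.3, 108, 22.1 and 27.03. By the mean over the libraries miR-1a-3p led, at 24.4, 73.5, 3.16 and 0. miR-206-3p, at 14.9, 34.4, 18.97 and 27.03, was above miR-1a-3p in 2 of 2 heat stress libraries. The values of miR-206-3p overlapped between the groups (log2 change −0.0047, adjusted p = 0.997). miR-1a-3p was lower in 2 of 2 heat stress libraries (log2 change −4.41, adjusted p = 0.513). Of 2 endothelial miRNAs, 2 were listed, with sums of 2.71, 0, 33.2 and 8.01, led by miR-126a-3p, which was higher in 2 of 2 heat stress libraries (log2 change 3.17, adjusted p = 0.612). Neither of these calls was made when any 1 library was left out, nor with a pseudocount of 0.1 or with log2(CPM + 1), where the changes were larger, −6.22 and −6.65 for miR-1a-3p and 4.94 and 5.06 for miR-126a-3p. That of miR-126a-3p was also lost with library totals (3.04) and with a variance prior tied to the mean (3.17). The values without 1 library ran from −5.44 to −3.39 for miR-1a-3p and from 2.23 to 4.12 for miR-126a-3p. miR-126a-5p was at 0 in every library but heat stress replicate 1. The preparations came from a single cell line grown in medium with fetal bovine serum. Neither the part of serum RNA nor that of other cell types in the marker and member values was tested.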

How the data were processed

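Small RNA libraries of 4 exosome-enriched preparations were sequenced, 2 control and 2 heat stress. The authors removed adapters, reads that were too short and reads of low quality, and deposited 1 normalised signal value per miRNA and library. The study's methods name Bowtie and the submitters' processing notes list FastQC and BWA, while the counting tool, genome build and normalization are not given in the sources used here. The control time of 8 h is that of the labels, and the study's methods give a shorter one. A second deposited table, which repeats selected miRNAs with the authors' fold changes and p-values, was not used.

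Values were fitted with limma 3.58.1 (R 4.3.3) on log2(value + 1), with condition as the only term, on the 313 miRNAs that averaged 1 or more, and p-values were adjusted over all 313 by the Benjamini-Hochberg method. The code was tested on simulated data. Exact intervals and permutation tests used scipy 1.17.1. Named miRNAs were the members, the 3 closest profiles, seed sharers, neighbours within 10 kb, the most abundant miRNA, miR-128-3p and the marker lists. Members and lists were chosen with earlier results of these data known. The alternatives were other pseudocounts, filters, scalings, variance priors, a replicate block, summed paralogues and leaving out each library.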

Additional observations from a re-analysis of the deposited data

How the results depend on the processing

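With all 4 libraries, no member passed the threshold in the alternatives tried. Filters, the variance prior and the replicate block leave a fitted log2 change as it is, but they change its SE and interval. The SE of miR-24-3p, 0.85 in the main fit, was 0.58 with a variance prior tied to the mean. It was 0.49 where each library had to hold at least 10 reads. That of miR-23b-3p went the other way with that prior, from 0.88 to 1.32. Another pseudocount, another scaling or summed paralogues gave 44 values for single members, of which 41 kept their sign. The exceptions were miR-27b-3p, at −0.0321 with library totals and −0.0323 with log2(CPM + 1), and miR-23b-3p, which took the value of the miR-23 sum, 0.14. The log2 change of the summed members was −0.146 with library totals and −0.146 with log2(CPM + 1).

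Over all miRNAs, 14 were past the threshold as higher and 9 as lower. The higher count was 6 where the mean had to reach 10, 2 where each library had to hold at least 10 reads (fewer miRNAs tested) and 6 with a variance prior tied to the mean. The lower count was 2 with a pseudocount of 0.1, 5 with at least 10 reads in each library and 3 with log2(CPM + 1). With a replicate block, 10 were higher and 4 lower, and no call of a member changed. Nothing states that equal replicate numbers share a culture, and libraries of equal number deviated from their group means with a correlation of −0.0189 across 313 miRNAs, which are not independent replicates.

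With 1 library left out, 9 of 40 member values changed sign, 3 passed the threshold and 2 became 0. A group of 1 library was then assumed to vary like the other group. miR-23b-5p and miR-27b-5p passed the filter through 1 library each, so their values past the threshold are no test. The counts ran from 10 to 39 higher, 3 to 27 lower and 0 to 1 member, and from 0 to 35 at an adjusted p under 0.05. The log2 changes ran from −0.50 to −0.04 for miR-24-3p, −0.72 to 1.10 for miR-23a-3p, −0.36 to 1.09 for miR-27a-3p, −0.197 to 0.33 for miR-27b-3p, −0.40 to 0.14 for miR-23a-5p, −1.67 to 4.85 for miR-27a-5p and −1.29 to 0.0857 for miR-24-2-5p. The cause of these shifts was not tested. The alternatives for miR-1a-3p, miR-126a-3p and miR-128-3p were chosen after seeing the data. Depth limits members of a few reads, where 1 read moves the value by 0.782 to 1.35.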
